A study of Sus scrofa with 2 samples.

Results

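The nuclei described here are those of the pig olfactory mucosa that carry transcripts of SLC6A11, a transporter that takes up GABA, together with those of 5 other genes, and that were labelled Bowman gland-like. A nucleus was taken when it had at least 500 detected genes, unique molecular identifiers (UMIs, 1 per captured transcript) of at least 3 of the 6 genes SLC6A11, SLC16A9, ADTRP, TMEM163, SYNPR and SLC15A2, and fewer than 4 summed UMIs of BPIFB3, BPIFB4 and BPIFB6. This rule found 317 of 10769 nuclei, 165 in the wild type library and 152 in the CFTR knockout library. They are called SLC6A11 gland nuclei below. The rule reads the levels of these genes, so their high values in the chosen nuclei are a description and not a finding.

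Frozen olfactory neuroepithelium of newborn pigs was sectioned and homogenized in a citric acid buffer, and its nuclei were captured in 10x Genomics droplets. One group is a wild type piglet and the other a piglet in which CFTR, an epithelial channel for chloride and bicarbonate that is defective in cystic fibrosis, was knocked out. The study asked about loss of smell in cystic fibrosis and the division of progenitors. Each genotype had 1 library, so a value stands for that library, no difference between genotypes could be tested, and all intervals cover counting error only, at 95%. The labels do not say how the knockout was made.

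Bowman's glands lie under the olfactory epithelium and send ducts through it to the surface. They secrete the fluid and mucus in which odorants dissolve, and they hold enzymes that break down odorants and toxic compounds. SOX9, a transcription factor, and AQP5, a water channel, are used to mark them, and CFTR is a channel of secretory epithelia in general.

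There were 4715 wild type barcodes with a median of 3032 UMIs, and 6054 knockout barcodes with a median of 2138. Transcripts of the mitochondrial genome took 2.8% of wild type and 1.31% of knockout UMIs. The libraries shared 8 barcodes, and each had 1 SLC6A11 gland nucleus among them. The SLC6A11 gland nuclei had a median of 5140 UMIs in the wild type and 3444 in the knockout library. Single nuclei ranged from 842 to 90361 and from 630 to 55739 UMIs. In the wild type, 16 nuclei with over 20000 UMIs held 41.2% of all UMIs of the set, and in the knockout 7 such nuclei held 26.9%.

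Not all of these nuclei lay together. The nuclei of both libraries were grouped by a nearest-neighbour graph (Leiden clustering) on variable genes that did not include the 6 rule genes, BPIFB3, BPIFB4, BPIFB6 or CFTR. Of 24 clusters, 1 held 100 of the 165 nuclei from the wild type and 104 of the 152 from the knockout. These 204 are called gland-cluster nuclei. The other 113 were spread over 17 clusters and are called scattered nuclei. Among them, 31 wild type nuclei sat in 1 cluster of deep nuclei with a median of 9235 UMIs, and 27 knockout nuclei sat in a cluster led by markers of respiratory ciliated cells. The scattered nuclei had medians of 11950 and 8586 UMIs, against 3850 and 2722 in the gland-cluster nuclei. Of the scattered nuclei, 36 of 65 wild type and 23 of 48 knockout nuclei also met a rule for sustentacular cells, the support cells of the epithelium. That rule was met by 3 and 7 gland-cluster nuclei. The split was made after the data were seen, and results are given for both sets where they part.

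The share of nuclei in the gland cluster went up with the number of rule genes that a nucleus carried. It was, for the wild type, 0.235% of nuclei with none of the 6, 9.09% with 2, 33.9% with 3, 70.2% with 4 and 83.3% with all 6. In the knockout it was 0.175%, 11%, 40.6%, 78.8% and 94.7%. Just outside the limit, 16 of 176 wild type and 30 of 273 knockout nuclei with 2 genes lay in the cluster, and just inside it 19 of 56 and 26 of 64 with 3 genes. At the other limit, 2 wild type and 3 knockout nuclei had 3 UMIs of the BPIFB genes and were kept, while 6 and 1 had 4 and were left out. In all, that limit left out 49 wild type and 10 knockout nuclei with at least 3 rule genes. Of them, 9 and 2 lay in the gland cluster, so many wild type nuclei met the gene part of the rule and the BPIFB one.

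**Figure D1:**
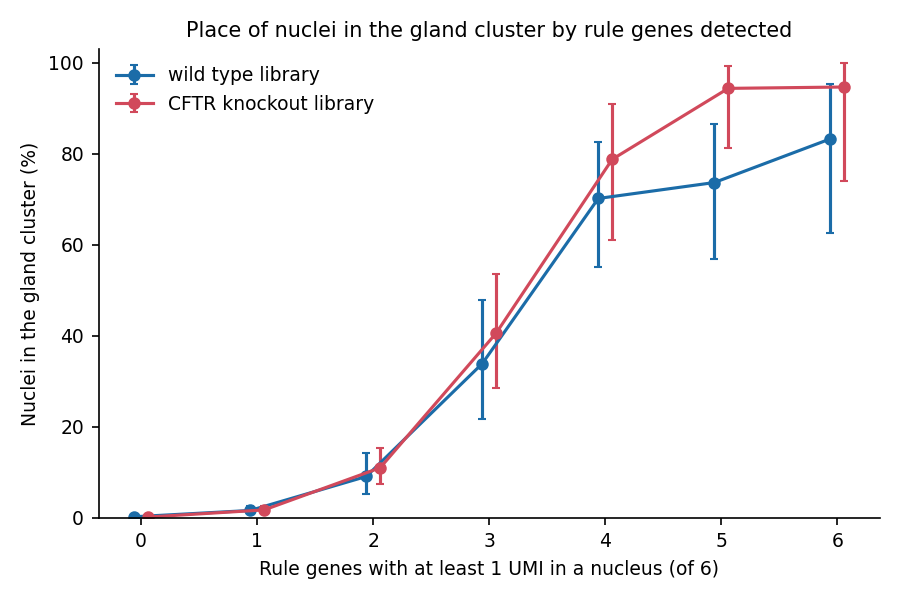
Share of nuclei that lie in the gland cluster (percent, vertical axis) by the number of the 6 rule genes with a UMI (horizontal axis), for nuclei under the BPIFB limit, with exact binomial 95% bars. The share is at most 11% up to 2 genes and is 70.2% (wild type) and 78.8% (knockout) at 4 genes.

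The SLC6A11 gland nuclei made up 3.64% (3.12 to 4.23) of the 4529 wild type nuclei with at least 500 genes and 2.87% (2.43 to 3.35) of the 5305 knockout nuclei. The ratio of these shares, knockout over wild type, was 0.786 (0.633 to 0.977). Depth moved with it. When every nucleus was first thinned to 1000 UMIs, 61 of 4320 wild type nuclei (1.41%) and 71 of 4704 knockout nuclei (1.51%) met the rule, and the ratio was 1.07 (0.761 to 1.5). Of those nuclei, 58 and 70 lay in the gland cluster. The gland-cluster nuclei alone were 2.21% and 1.96% of nuclei, with a ratio of 0.888 (0.677 to 1.16). Of all barcodes, 395 wild type and 1350 knockout ones were outside this count, for fewer than 1000 UMIs or fewer than 500 genes. Among nuclei with at least 500 genes, 5 SLC6A11 gland nuclei and 204 others of the wild type had under 1000 UMIs. In the knockout these were 4 and 597. The ratio of the gland-cluster nuclei was not matched for depth. With 1 library per genotype the intervals say nothing of the spread between animals.

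Each of the 6 rule genes was then left out in turn and read in the nuclei that the other 5 picked. SLC6A11 had a UMI in 83 of 146 wild type nuclei so picked (56.8%) and in 75 of 121 knockout nuclei (62%), against 2.05% and 2.72% of the remaining nuclei. In glia the share was 2.86% and 3.45%, at median depths of 2998 and 3305 UMIs. Glia were read as a measure of background RNA. Whether they express any of the 6 genes themselves was not tested. SLC16A9, a carrier of carnitine and monocarboxylates, was found in 62.4% and 63.2% of the picked nuclei, and in 4.29% and 19% of glia. ADTRP, a hydrolase of fatty acid esters, was found in 54% and 51.5%, and in no glia nucleus of either library. TMEM163, which moves zinc, was found in 69.9% and 49.2%, SYNPR, a vesicle membrane protein, in 71.3% and 73.6%, and SLC15A2, a carrier of small peptides, in 68.7% and 59%. Each of the 6 had a higher share in the picked nuclei than in glia, where SLC15A2 was found in 7.14% and 12.1%. The 6 genes were chosen together with earlier results of these data known, so these shares describe the set and are no test of it. The picked nuclei and glia were not matched for depth here. BPIFB gland nuclei, 83 and 76 with at least 4 summed BPIFB UMIs that met no other class's rule, were nearer for some of the genes. Having at least 3 rule genes did not bar a nucleus from this class, and 49 wild type and 10 knockout nuclei had both. Those of them that met no sustentacular, microvillar or glia rule count in its shares and levels. BPIFB gland nuclei had SLC15A2 in 65.1% and 50%, and at 1000 UMIs its share was 32.9% and 23% there, against 28.8% and 34.5% of all SLC6A11 gland nuclei. SYNPR was found in 43.4% and 26.3% of BPIFB gland nuclei, ADTRP in 42.2% and 19.7%, and SLC6A11 in 13.3% and 2.63%.

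Levels are given as CPM, a gene's summed UMIs per 1e6 UMIs of the same nuclei. SLC6A11 stood at 465 CPM (432 to 500.4) in the SLC6A11 gland nuclei of the wild type and at 469 CPM (426 to 516) in those of the knockout. In the gland-cluster nuclei it stood at 1368 CPM (1262 to 1482) and 1111 CPM (1001 to 1231), and in all other nuclei at 13.4 and 10.9 CPM. Within the gland-cluster nuclei it was uneven. The 78 wild type nuclei that had it carried 1 to 48 UMIs with a median of 4, and the 87 knockout nuclei 1 to 29 with a median of 2. SLC16A9 stood at 1623 and 2328 CPM in the gland-cluster nuclei, ADTRP at 674 and 647, TMEM163 at 757 and 729, SYNPR at 926 and 1075, and SLC15A2 at 588 and 678. The scattered nuclei carried far less SLC6A11, 105 CPM (87 to 126) in the wild type and 98.9 CPM (74.9 to 128) in the knockout, although 36.9% and 39.6% of them had a UMI of it.

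The gland cluster also held 115 nuclei that missed the rule, 51 wild type and 64 knockout. They were shallower, with medians of 1877 and 938 UMIs. Of them, 9 wild type and 2 knockout nuclei had at least 3 rule genes and were left out by the BPIFB limit. SLC6A11 had a UMI in 13 of the 51 and 25 of the 64, at 705 CPM (560.1 to 877) and 665 CPM (495 to 874) over all of them. TMEM163 was at 723 and 339 CPM there, and ADTRP at 462 and 130.3 CPM. The clustering had not used these genes.

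SOX9 and AQP5 are the markers named for the label that the rule did not use, though both were among the genes open to the clustering. SOX9 had 26 UMIs in the wild type gland-cluster nuclei, 58.6 CPM (38.3 to 85.9), and 14 UMIs in those of the knockout, 42.2 CPM (23 to 70.7). All other nuclei had 4.52 and 4.31 CPM. Nuclei of the other gland type, chosen by at least 4 summed UMIs of BPIFB3, BPIFB4 and BPIFB6, had SOX9 at 62.1 CPM (41.9 to 88.6) and 31.8 CPM (13.7 to 62.7), which overlaps. Scattered nuclei had 6 SOX9 UMIs in the wild type and 0 in the knockout. Over all SLC6A11 gland nuclei SOX9 stood at 20.6 and 15.4 CPM.

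AQP5 stood at 138 CPM (105 to 177) in the wild type gland-cluster nuclei and 99.4 CPM (68.4 to 139.6) in those of the knockout, against 34.3 and 14.4 CPM in all other nuclei. Sustentacular nuclei also had AQP5, at 79 CPM (69.5 to 89.5) in the wild type and 20.8 CPM (15.5 to 27.3) in the knockout, and BPIFB gland nuclei had 93.1 CPM (67.9 to 125) and 23.9 CPM (8.76 to 52). The gland-cluster level overlaps that of the wild type BPIFB gland nuclei. Of the 6 markers given for the label, 5 were at least 4-fold higher in the gland-cluster nuclei than in all other nuclei. This held in both libraries, with at least 20 UMIs in each, and SOX9 was under that count in the knockout. Of the 5, 4 are rule genes, whose high levels the rule selected, so the count of 5 is no test of the label. AQP5, the other one, was near the 4-fold limit in the wild type, at 138 against 34.3 CPM. AQP5 was also open to the clustering, so its level describes the set.

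Of the 37 listed genes of mucus and secreted defence, 25 could be read, and 8 of these were at 0 in the gland-cluster nuclei of both libraries. The other 12, among them MUC1, MUC4, MUC5AC, MUC5B and MUC16, were not found under their symbol, so these mucins could not be read. Present were WFDC2, a protease inhibitor, with 336 and 242 UMIs, the complement protein C3 with 295 and 230, and PIGR with 84 and 52. Among those at 0, LYZ, the enzyme lysozyme, LTF, the iron binder lactoferrin, and LPO, lactoperoxidase, are known products of serous glands. SCGB1A1, a secretoglobin, was at 0 too. The exact 95% bound of a count of 0 was 8.32 CPM for the wild type library and 11.1 CPM for the knockout one. Bowman gland-like is kept here as the label given, and the levels of SOX9, AQP5 and the rule genes are no test of it. SOX9 did not set the gland-cluster nuclei apart from BPIFB gland nuclei, and AQP5 did not in the wild type.

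**Figure D2:**
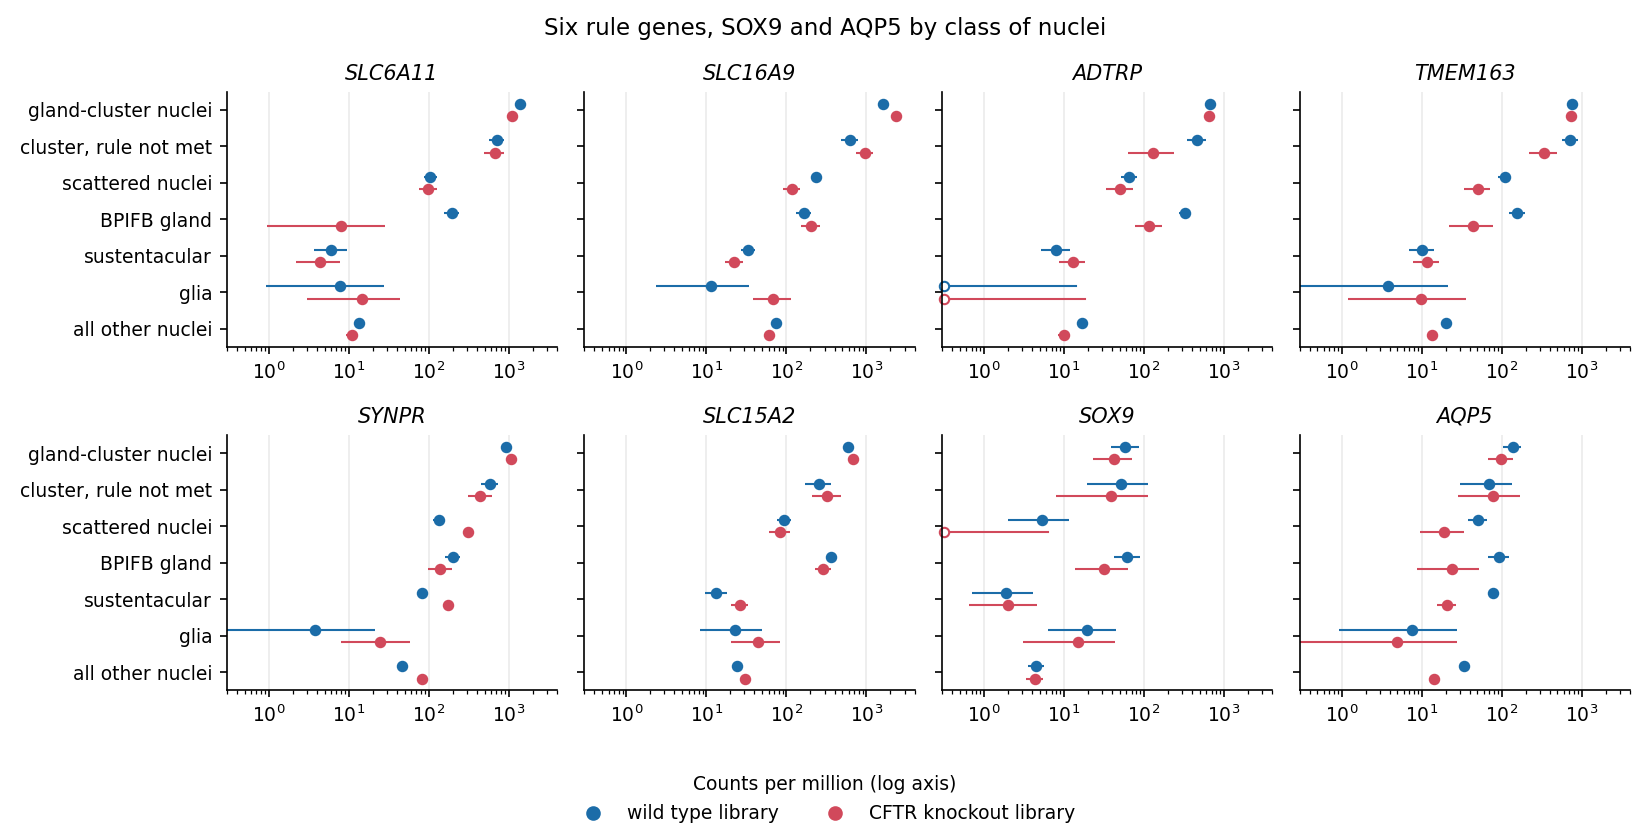
CPM (log axis) of the 6 rule genes, SOX9 and AQP5 by class of nuclei and library, with exact Poisson 95% bars; open points at the left edge are counts of 0 with their upper bound. The gland-cluster nuclei have the highest points for the 6 rule genes, for example 1368 and 1111 CPM of SLC6A11, while SOX9 overlaps with BPIFB gland nuclei and AQP5 is also present in wild type sustentacular nuclei.

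CFTR itself was a gene of these nuclei. In the wild type library the SLC6A11 gland nuclei held 447 CFTR UMIs, 287 CPM (261 to 315), and in the knockout 13 UMIs, 14.3 CPM (7.62 to 24.5). The knockout over wild type ratio was 0.0498 (0.0263 to 0.0861). In the wild type gland-cluster nuclei CFTR stood at 733 CPM (655 to 817), with 325 UMIs in 64 of 100 nuclei and up to 44 UMIs in 1 nucleus. In those of the knockout there were 2 UMIs in 104 nuclei, a ratio of 0.00822 (0.000991 to 0.0299). Thinned to 1000 UMIs per nucleus, 38.9% (29.1 to 49.5) of the wild type gland-cluster nuclei had a CFTR UMI, and 2% (0.243 to 7.04) of the knockout ones. The targeted gene was thus lower in the library labelled knockout, and some of its UMIs were still counted there.

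By class, the 9 wild type microvillar nuclei, rare ion-transporting cells chosen by at least 3 of 6 ionocyte markers other than CFTR, were highest in CFTR at 1701 CPM (1349 to 2117). The gland-cluster nuclei came next, and the nuclei of the same cluster that missed the rule had 670.5 CPM (529 to 838), which overlaps them. BPIFB gland nuclei had 149 CPM (117 to 188), scattered nuclei 109.7 CPM (91.1 to 131), and these intervals overlap. Sustentacular nuclei had 75.2 CPM (65.9 to 85.5), and all other nuclei 68.8 CPM. Glia had 0 UMIs of CFTR in 70 wild type nuclei. The floor of 3 counts allows a UMI in up to 4.29% of them, and the exact 95% bound was 5.13%. At this depth that limits nuclei with a UMI, not nuclei that express the gene. CFTR was used neither by the rule nor by the clustering.

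Gland-cluster nuclei with and without an SLC6A11 UMI had overlapping shares of CFTR. It was found in 49 of the 78 wild type gland-cluster nuclei with an SLC6A11 UMI (62.8%, 51.1 to 73.5) and in 15 of the 22 without (68.2%, 45.1 to 86.1).

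**Figure D3:**
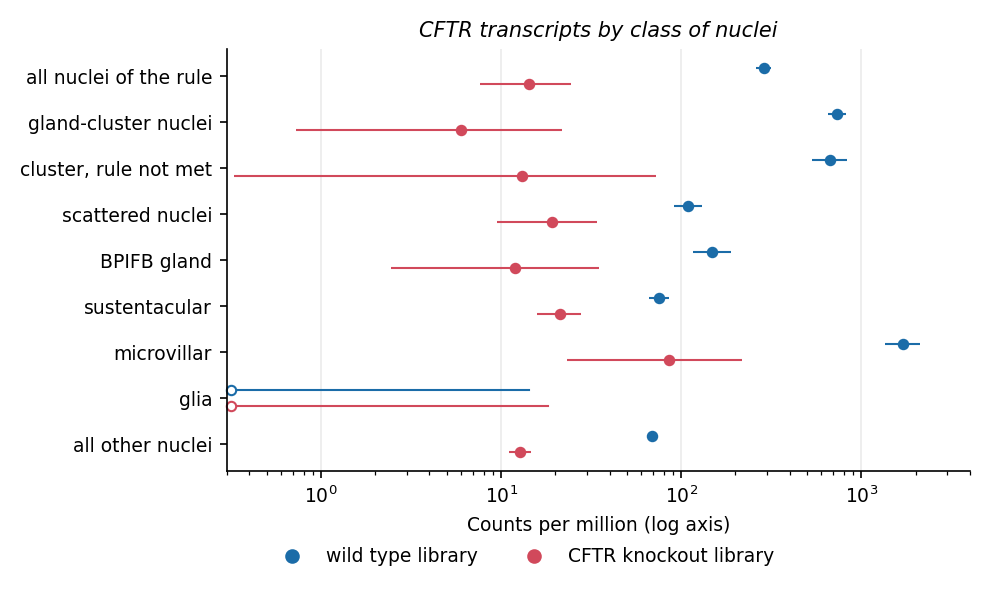
CFTR in CPM (log axis) by class of nuclei and library, with exact Poisson 95% bars; open points at the left edge are counts of 0. Wild type gland-cluster nuclei sit at 733 CPM, below the 9 microvillar nuclei at 1701 CPM, and the knockout points of all classes lie under 100 CPM.

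To see what else these nuclei share, a gene was called raised when its CPM was at least 4-fold that of all other nuclei in both libraries and each library had at least 20 UMIs of it. In the SLC6A11 gland nuclei 50 of 7611 genes were raised, 0.657%. Of these, 6 are the rule genes, 37 others have a symbol and 7 are known only by an identifier or an uncertain symbol. All 50 were also raised in the gland-cluster nuclei, where 152 of 3837 genes were, 3.96%. The clustering used these genes, so the values are a description of the set. The 20 named by a rule of size follow, with levels in gland-cluster nuclei and all other nuclei.

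PPARG, a nuclear receptor that turns on lipid storage genes, had 629 CPM in wild type and 322 CPM in knockout gland-cluster nuclei, against 19.3 and 17.7 CPM elsewhere. PDK4, a kinase that shuts off glucose oxidation, had 1087 and 675 CPM, against 48.2 and 68 CPM. SORD, which oxidizes sorbitol to fructose, had 266 and 337 CPM, against 23.6 and 33.9 CPM. AQP9, a channel for water and glycerol, had 119 and 289 CPM, against 5.34 and 21.2 CPM.

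KMO, an enzyme of tryptophan breakdown, had 252 and 268 CPM, against 8.56 and 8.36 CPM elsewhere. BPIFB gland nuclei had 24.8 CPM of KMO in the wild type and 0 UMIs in the knockout. ALDH1A3, which makes retinoic acid, had 246 and 196 CPM, against 10.1 and 8.49 CPM. CNDP1, which splits carnosine, a dipeptide abundant in olfactory neurons, had 131 and 145 CPM, against 5.63 and 12.3 CPM.

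GATA6, a transcription factor of endoderm and epithelia, stood at 307 and 181 CPM, against 14 and 7.51 CPM elsewhere. GATA6 was at a like level in BPIFB gland nuclei, 257 and 215 CPM, and at 0.956 and 2.4 CPM in sustentacular nuclei, so both gland types carried it. CREB3L2, a membrane-bound factor that drives secretory pathway genes, had 1551 and 1596 CPM, against 131 and 112 CPM. In BPIFB gland nuclei CREB3L2 had 716 and 494 CPM.

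MRLN, which encodes a small peptide that restrains the calcium pump of the endoplasmic reticulum, had the largest ratio of the 20. It had 325 and 301 CPM, against 3.58 and 6.72 CPM elsewhere, a log2 ratio of 6.50 and 5.48, and 6.21 and 23.9 CPM in BPIFB gland nuclei. ADORA2B, an adenosine receptor that raises cyclic AMP, had 108 and 205 CPM, against 8.09 and 18 CPM. MRAP2, a partner of melanocortin receptors, had 775 and 711 CPM, against 63.3 and 45.8 CPM. MYO16, an unconventional myosin, had 151 and 175 CPM, against 7.97 and 7.77 CPM, and 4.14 and 3.98 CPM in BPIFB gland nuclei.

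The others of the 20 were C4BPA, which binds complement factor C4, NPNT and SNED1 of the extracellular matrix, the cell surface protein NTNG1, the vasohibin VASH2, the protease CAPN1 and C4orf19. C4BPA had 552 and 759 CPM, against 28 and 73.9 CPM elsewhere. Over all 20, the log2 ratio of the gland-cluster nuclei to other nuclei ran from 3.45 (NTNG1) to 6.50 (MRLN) in the wild type and from 3.18 (NPNT) to 5.48 (MRLN) in the knockout. The wild type BPIFB gland nuclei had less than the gland-cluster nuclei of each of the 20, and in the knockout the same held for 19, with GATA6 the exception.

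**Figure D4:**
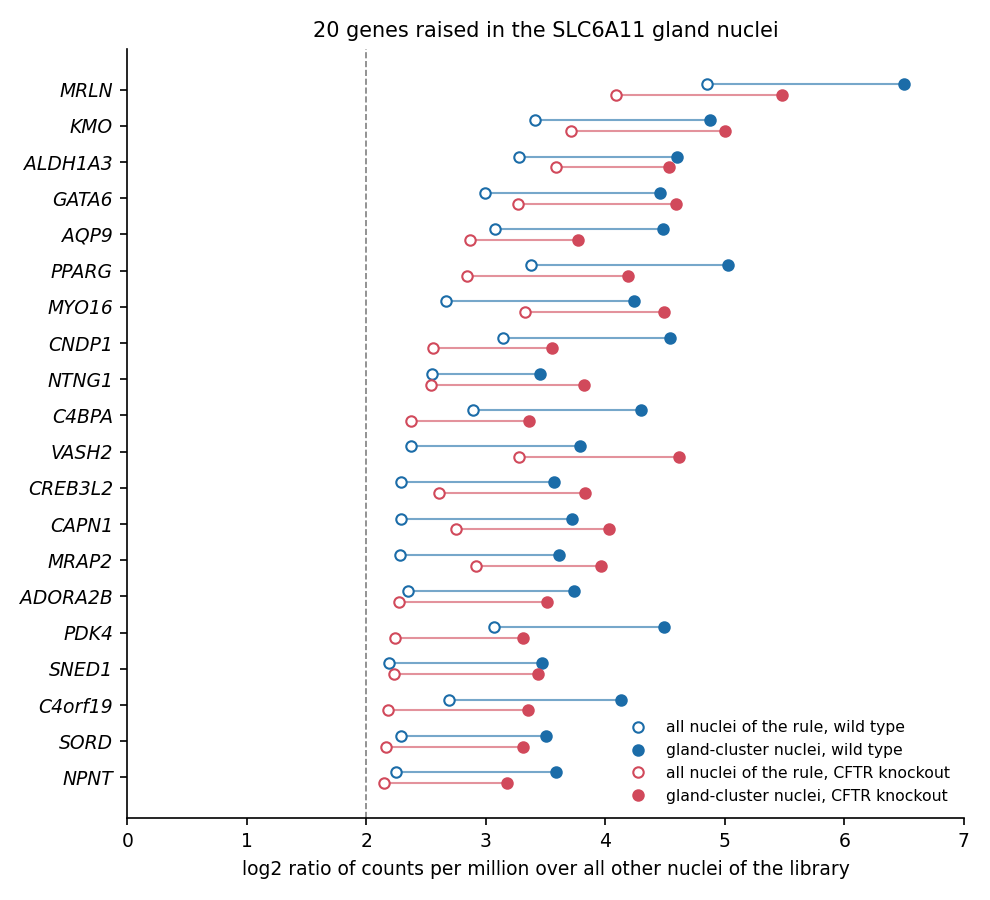
Log2 ratio of CPM over all other nuclei of the same library (horizontal axis) for the 20 named genes, in all SLC6A11 gland nuclei (open) and the gland-cluster nuclei (filled), by library; the dashed line marks the 4-fold limit. The filled points lie to the right of the open ones for each gene, as for MRLN at 6.50 and 5.48.

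In the gene lists, raised members are given beside the 3.96% of all genes, over members with at least 20 UMIs in each library of the gland-cluster nuclei. That limit was set in the same nuclei where genes are called raised. The lists were chosen with earlier results of these data known, and the clustering could use most of these genes. The counts thus describe the set and are no test of a list. Raised members were 2 of 13 anion and fluid transport genes and 4 of 8 GABA, amino acid, peptide and monocarboxylate genes. Of these 4, 3 are rule genes, whose high levels the rule selected, so that count is not read against 3.96%. Raised members were 3 of 8 mucus and secreted defence genes and 3 of 11 xenobiotic and odorant metabolism genes. They were 2 of 9 transcription factors, 2 of 14 stimulus and secretion genes, 1 of 15 growth factor, Notch and Wnt genes, and 1 of 22 secretory pathway genes, CREB3L2, a share near that of all genes. In the anion and fluid transport list, KCNQ1, a potassium channel that supports chloride secretion, was raised beside AQP5, with 248 and 208 CPM against 20.7 and 23 CPM elsewhere. In the list of GABA, amino acid, peptide and monocarboxylate handling, SLC38A2, a carrier of neutral amino acids, was raised beside the rule genes SLC6A11, SLC15A2 and SLC16A9, with 1053 and 1129 CPM against 133 and 157 CPM. In the mucus and secreted defence list these were C3, PIGR and GALNT7. C3, the central complement protein, had 665 and 693 CPM against 59.6 and 129 CPM. PIGR, which carries antibodies across epithelia, had 189 and 157 CPM against 6.63 and 21.8 CPM. GALNT7, an enzyme that adds sugars to mucin-type proteins, had 439.6 and 476 CPM against 76.7 and 82.1 CPM. In the xenobiotic and odorant metabolism list they were SULT1E1, CYP4A24 and ALDH1A3. SULT1E1, a sulfotransferase of steroids and phenols, had 1276 and 1241 CPM against 232 and 219 CPM, and BPIFB gland nuclei had more of it, 2206 and 1942 CPM.

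Among gland and epithelial transcription factors, EHF and GRHL1 were raised. EHF, an ETS factor of secretory epithelia, had 367 and 551 CPM against 53.4 and 111 CPM. FGFR2, a receptor for fibroblast growth factors in branching glands, was the one raised member of the growth factor, Notch and Wnt list, with 735 and 708 CPM. ADCY6, which makes cyclic AMP, and RAB27B, which docks secretory vesicles, were raised in the stimulus and secretion list. The other lists had no raised member, with 17 adhesion and keratin, 11 mitochondrial, 7 immediate early, 3 cell cycle and 2 interferon genes measured, too few in most to read anything from a 0 against a share of 3.96%.

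Between the libraries, a gene was called past 2-fold when its CPM in the knockout was at least 2-fold that in the wild type, or at most 0.5 of it, with at least 20 UMIs in all. In the SLC6A11 gland nuclei 1013 of 10979 genes (9.23%) were higher and 847 (7.71%) lower in the knockout. In the gland-cluster nuclei 462 of 6749 (6.85%) were higher and 326 (4.83%) lower. Among all other nuclei 1054 of 16127 (6.54%) were higher and 474 (2.94%) lower. With 1 library per genotype these counts have no replicate check.

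The 12 genes with the highest ratio over all SLC6A11 gland nuclei were BTG4, KIAA2012, DTHD1, IDO2, DHRS9, GABRB2, TCTEX1D4, WDR49, FRMPD2, SNTN, BPIFA1 and ECT2L. BTG4 had 5 wild type and 278 knockout UMIs, and 276 of the 278 lay in scattered nuclei. SNTN, a protein of the tip of cilia, had 7 and 166 UMIs, of which 161 lay in scattered nuclei. For 10 of the 12, scattered nuclei held 87.1% or more of the knockout UMIs, the others being BPIFA1 (68.2%) and GABRB2 (12%).

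Markers of respiratory ciliated cells moved with these genes. The 8 ciliated markers summed to 576 CPM in wild type and 3398 CPM in knockout SLC6A11 gland nuclei, with all 8 past 2-fold. In scattered nuclei they summed to 770.4 and 5241 CPM, and in gland-cluster nuclei to 87.9 and 199 CPM. Their part in the result was not tested.

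The 12 genes with the lowest ratio were TEX15, DPYS, CFTR, CXCL14, BRINP1, ZNF536, CNTNAP5, MMP3, ELAVL2, CADM2, BRINP3 and NCAM2. Of these, 8 had under 20 UMIs in the gland-cluster nuclei. NCAM2, an adhesion protein of olfactory axons, had 619 wild type and 40 knockout UMIs, and 565 of the 619 lay in scattered nuclei. The 8 immature neuron markers summed to 1273 and 484 CPM in the SLC6A11 gland nuclei, with 7 of 8 past 2-fold lower, and to 561 and 431 CPM in the gland-cluster nuclei. Their part was not tested either.

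CFTR and DPYS had the lowest ratios in the gland-cluster nuclei among genes with at least 40 UMIs. DPYS, an enzyme of pyrimidine breakdown, had 127 UMIs in 40 of 100 wild type nuclei and 4 UMIs in 4 of 104 knockout nuclei, 286 against 12 CPM, a ratio of 0.0421 (0.0113 to 0.11). No single nucleus held more than 10 of the 127. DPYS was scarce in all other nuclei of both libraries, at 4.16 and 1.5 CPM, and in wild type BPIFB gland nuclei it had 20.7 CPM.

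Other genes with large differences in the gland-cluster nuclei, HSD11B1, STXBP6, CAPN13, ATP8A1, MDGA2, NTRK2, ST6GALNAC5, PURG, IFITM3, LGALS3, HBB, LACTB and BAALC, were chosen after their values were seen. HSD11B1, which regenerates active glucocorticoid, had 170 UMIs in 69 wild type and 32 UMIs in 23 knockout nuclei, a ratio of 0.251 (0.167 to 0.369), while its log2 ratio in all other nuclei was -0.15. STXBP6, a partner of the fusion protein syntaxin, had 254 and 53 UMIs, a ratio of 0.279 (0.203 to 0.376). CAPN13, a calpain protease, had 220 and 27 UMIs, a ratio of 0.164 (0.106 to 0.245). In all other nuclei the log2 ratios of the latter were 0.10 and 0.33. Over all SLC6A11 gland nuclei the log2 ratios were smaller, -0.57 for HSD11B1, -0.87 for STXBP6 and 0.02 for CAPN13.

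ATP8A1, a lipid flippase, had 370 UMIs in 80 wild type and 109 UMIs in 44 knockout nuclei, a ratio of 0.394 (0.315 to 0.489). MDGA2, a membrane-anchored surface protein, had 152 and 12 UMIs, a ratio of 0.105 (0.0533 to 0.19), and it was also lower in all other nuclei, at 60.1 and 33.1 CPM. NTRK2, the receptor of the growth factor BDNF, had 104 and 17 UMIs, and TGFB2, a secreted growth factor, 39 and 5. ST6GALNAC5, PURG and NCAM2 were lower as well, but 1 wild type nucleus held 35 of 50, 52 of 71 and 31 of 54 of their UMIs.

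GABRB2, a subunit of the GABA-A receptor, had the highest ratio in gland-cluster nuclei among genes with at least 40 UMIs. It had 1 UMI in the wild type and 81 in the knockout, 2.25 against 244 CPM, a ratio of 108 (18.9 to 4326). The 81 UMIs lay in 18 of 104 nuclei, and 34 of them in 1 nucleus. Thinned to 1000 UMIs, 0 of 95 wild type and 10 of 100 knockout gland-cluster nuclei had a UMI. In all other nuclei GABRB2 was lower in the knockout, with 8.56 and 4.37 CPM.

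BPIFA1, BPIFB1, IFITM3, LGALS3 and HBB were also higher in the knockout gland-cluster nuclei, but they were so in glia too. BPIFA1, a secreted protein of the respiratory surface, had 15.8 and 409.6 CPM in the gland-cluster nuclei and 11.5 and 434 CPM in glia. It had a UMI in 68.3% of knockout gland-cluster nuclei and in 81% of knockout glia. Whether these UMIs are background RNA was not tested. IFITM3, an antiviral membrane protein, had 289 CPM in the knockout gland-cluster nuclei and 227 CPM in glia, and HBB, a globin of red cells, 226 and 168 CPM. BPIFB1 was higher in the knockout gland-cluster nuclei than in glia, at 202 and 24.7 CPM. Its 67 UMIs lay in 18 nuclei, 29 of them in 1 nucleus. LACTB and BAALC had a UMI in 24% and 38.5% of knockout gland-cluster nuclei and in 15.5% and 37.9% of knockout glia. LACTB had 13.5 CPM in wild type and 145 CPM in knockout gland-cluster nuclei, a ratio of 10.7 (4.57 to 30.6). BAALC had 38.3 and 325 CPM, a ratio of 8.49 (5.06 to 15.1). In all other nuclei their log2 ratios were -0.04 and 0.64.

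The fixed lists were read in both sets. Over all genes the median log2 ratio, knockout over wild type, was 0.10 in the SLC6A11 gland nuclei and 0.07 in the gland-cluster nuclei. List counts past 2-fold are to be read beside the shares over all genes. These were 9.23% higher and 7.71% lower in the SLC6A11 gland nuclei, and 6.85% and 4.83% in the gland-cluster nuclei. In lists this small, a count of 1 or 2 says little beside these shares. Of 20 measured members of the GABA, amino acid, peptide and monocarboxylate list, 1 was past 2-fold higher and 1 lower, with a median of 0.20. Of 16 measured in the gland-cluster nuclei 2 were higher and 3 lower, with a median of 0.15. SLC16A7, a monocarboxylate carrier, had 61 and 122 UMIs there, a ratio of 2.67 (1.95 to 3.7). SLC6A20, a carrier of proline, had 8 and 34 UMIs, a ratio of 5.68 (2.58 to 14.2). The glutamate carriers SLC1A1 and SLC1A3 were lower, with ratios of 0.293 (0.159 to 0.508) and 0.377 (0.229 to 0.599), as was SLC38A1 at 0.403 (0.215 to 0.716). SLC6A11 itself had a ratio of 0.812 (0.712 to 0.926), and SLC16A9 of 1.43 (1.29 to 1.59), both within 2-fold.

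Of 26 measured anion and fluid transport genes, 3 were past 2-fold higher and 3 lower, with a median of 0.15. Of 18 measured in the gland-cluster nuclei 1 was higher and 1 lower, with a median of -0.35. The lower one was CFTR. The higher one was ANO1, the calcium-activated chloride channel, with 10 wild type and 27 knockout UMIs, 22.5 and 81.3 CPM, a ratio of 3.61 (1.69 to 8.35). In all other nuclei ANO1 had a log2 ratio of -0.16. SLC12A2, which loads cells with chloride, had a ratio of 1.25 (0.95 to 1.65), and AQP5 of 0.723 (0.458 to 1.12). KCNMA1, a large potassium channel, had a ratio of 1.46 (1.29 to 1.65), and the bicarbonate carrier SLC4A4 of 1.72 (1.35 to 2.2).

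Of 14 measured mucus and secreted defence genes, 6 were past 2-fold higher and 1 lower, with a median of 0.50, against 1.11 in all other nuclei. Of 11 measured in the gland-cluster nuclei 3 were higher and 2 lower, with a median of 0.06. The 3 were BPIFA1, BPIFB1 and TFF3, and markers of respiratory secretory cells, which include BPIFA1, TFF3 and AGR2, summed to 755 CPM in knockout glia against 92.2 CPM in wild type glia. The lower ones were AGR2 and ST6GAL1. AGR2, a disulfide isomerase needed for mucin folding, had 358 UMIs in 77 wild type and 117 UMIs in 55 knockout nuclei, 807 and 352 CPM, a ratio of 0.437 (0.351 to 0.539). ST6GAL1, which adds sialic acid to secreted proteins, had 221 and 66 UMIs, a ratio of 0.399 (0.298 to 0.527). In all other nuclei AGR2 had a log2 ratio of 0.93 and ST6GAL1 of -0.46. C3, at 1.04 (0.873 to 1.24), and WFDC2, at 0.962 (0.812 to 1.14), were within 2-fold.

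Of 31 secretory pathway and unfolded protein response genes, 1 was past 2-fold higher and 0 lower, with a median of -0.03, and in the gland-cluster nuclei 1 of 29 and 0, with a median of -0.13. HSPA5, the chaperone BiP, had a ratio of 0.811 (0.514 to 1.26) and CREB3L2 of 1.03 (0.917 to 1.15) in the gland-cluster nuclei. The one past the fold was SEL1L, a part of the machinery that removes misfolded proteins, with 20 and 41 UMIs. Of 21 gland and epithelial transcription factors, 3 were higher and 0 lower, with a median of 0.08. Among 17 in the gland-cluster nuclei 0 were higher and 1 lower, with a median of -0.41. EHF had a ratio of 1.5 (1.21 to 1.86), and GRHL2 of 0.707 (0.603 to 0.827). The one past 2-fold was TFCP2L1, with 28 wild type and 3 knockout UMIs, a ratio of 0.143 (0.0278 to 0.463).

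Of 27 stimulus and secretion genes, 4 were higher and 3 lower, with a median of 0.14. Among 20 in the gland-cluster nuclei 0 were higher and 4 lower, with a median of -0.39. TACR1, the receptor of substance P, had a ratio of 0.502 (0.39 to 0.642) in the gland-cluster nuclei but a log2 ratio of 1.19 over all SLC6A11 gland nuclei and 2.24 in all other nuclei. Of 21 xenobiotic and odorant metabolism genes, 5 were higher and 2 lower, with a median of 0.19, and in the gland-cluster nuclei 1 of 17 and 2, with a median of -0.19. FMO2, a flavin monooxygenase, had 80 and 20 UMIs, a ratio of 0.334 (0.194 to 0.551). CYP2A19, an odorant-metabolizing cytochrome, had a log2 ratio of -1.18 over all SLC6A11 gland nuclei and -0.28 in the gland-cluster nuclei. In wild type sustentacular nuclei, where the same cytochrome stood at 2973 CPM, it was above the 947 CPM of the gland-cluster nuclei.

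Of 27 interferon response genes measured in the SLC6A11 gland nuclei, 15 were past 2-fold higher and 0 lower, with a median of 1.09, close to 1.06 in all other nuclei. In the gland-cluster nuclei 7 had 20 UMIs, with 1 higher, 2 lower and a median of -0.01. The list summed to 622 and 684 CPM there, against 697 and 1288 CPM in all SLC6A11 gland nuclei. MX2, an antiviral GTPase, had 25 and 82 UMIs over all SLC6A11 gland nuclei but 3 and 1 in the gland-cluster nuclei.

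Of 23 cell cycle genes, 3 were higher and 1 lower, with a median of 0.65, and in the gland-cluster nuclei 2 of 10 and 0, with a median of 0.36. The 13 mitochondrial transcripts had a median of -0.63, and -0.91 in the gland-cluster nuclei, against -1.25 in all other nuclei. Growth factor, Notch and Wnt genes had a median of 0.00 (2 of 36 higher, 5 lower), and -0.02 in the gland-cluster nuclei. Adhesion, keratin and polarity genes had a median of 0.06 (3 of 32 higher, 2 lower), and -0.08. Immediate early and stress genes had a median of 0.21 (2 of 20 higher, 1 lower), and 0.12.

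**Figure D5:**
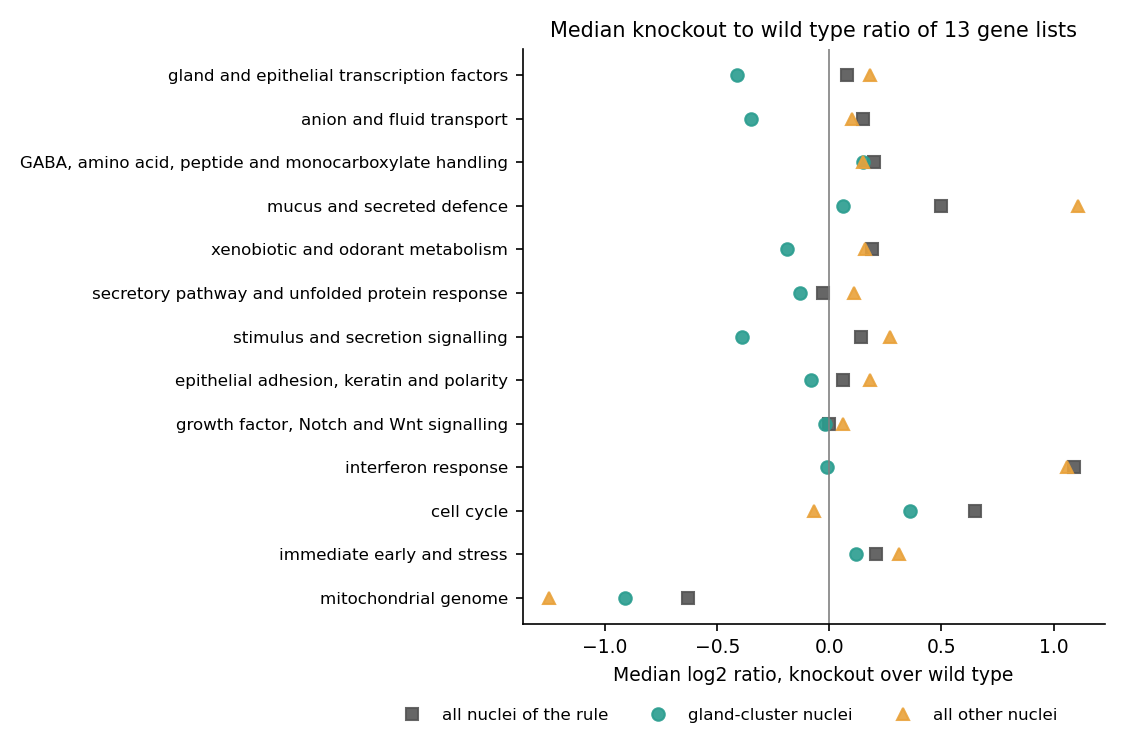
Median log2 ratio of CPM, knockout over wild type (horizontal axis), of the 13 gene lists in all SLC6A11 gland nuclei, gland-cluster nuclei and all other nuclei. Interferon genes lie at 1.09 and 1.06 in the first and last set and at -0.01 in gland-cluster nuclei.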

How the data were processed

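UMI counts per gene and nucleus were used as deposited, 1 table per library, matched to a sample by the name in its title. Per the submitters' processing notes, Cell Ranger, R 4.0.2 and Seurat 4.0 were used; the genome build, annotation and intron counting were not given in the sources used here. The deposited barcodes all had at least 500 UMIs. Of 25880 genes, 8256 were listed by identifier only, and 1029 of those gained a symbol through a gene name table. The rule, the gene lists and the markers were chosen with earlier results of these data known.

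Counts were summed over nuclei and scaled to CPM. Levels have exact Poisson, ratios exact conditional binomial and shares exact Clopper-Pearson intervals; the ratio of shares has a log-normal one. For log2 ratios a count under 3 was set to 3. Scripts were tested on simulated data. Genes named against other nuclei were the 20 with the highest smaller log2 ratio of the libraries, with at least 50 UMIs and a UMI in 20% of the nuclei in each. Genes named between libraries were the 12 highest and 12 lowest with at least 40 UMIs, and list genes by size or abundance. Other nuclei are all nuclei with at least 500 genes that missed the rule, BPIFB gland nuclei included.

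Clustering used scanpy 1.11.5 and igraph 0.11.9 with 2000 variable genes, 30 components, 15 neighbours and resolution 1. Doublets were not removed: Scrublet's own threshold called 1 nucleus per library, so its top scores (178 and 293 nuclei) were set aside only as an alternative. Other tools were Python 3.11.15, numpy 2.4.6, scipy 1.17.1, pandas 2.3.3, and R 4.3.3 with edgeR 4.0.16 for TMM factors only. A planned motif search was not run. Alternatives covered the rule, depth, doublets, scaling and minimum UMIs.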

Additional observations from a re-analysis of the deposited data

How the results depend on the processing

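The number and share of SLC6A11 gland nuclei depend on the rule. Asking for at least 4 genes left 109 wild type (2.41%) and 88 knockout nuclei (1.66%), and at least 2 genes gave 341 (7.53%) and 425 (8.01%), with a log2 ratio of shares of 0.09 in place of -0.35. Thinning to 1000 UMIs first gave 61 (1.41%) and 71 (1.51%), and 0.10. The gland cluster kept 100 (2.21%) and 104 (1.96%). No BPIFB UMI gave 2.78% and 2.17%, and leaving out nuclei that met another class's rule 2.76% and 2.3%. The definitions by cluster and by other class were added after seeing the data.

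The CFTR log2 ratio of -4.33 was -6.34 in the gland cluster, with the 3-count floor, and -5.50 without other classes. Genes past 2-fold higher were 576 at 50 UMIs, 1724 at 1 UMI and 462 in the gland cluster, against 1013. Genes past 2-fold lower were 509 at 50 UMIs, 326 in the gland cluster and 556 without other classes, against 847. Raised genes were 77 with at least 4 rule genes, 108 by mean CPM over nuclei and 152 in the gland cluster, against 50. Of the lists, mucus and defence moved to 0.94 by mean CPM and 0.06 in the gland cluster, and there stimulus genes to -0.39, interferon genes to -0.01 and mitochondrial genes to -0.91. The cause was not tested. All 44 values over other nuclei kept their direction in every alternative, which their choice as raised genes nearly fixes, but they moved beyond their counting interval for 44 in the gland cluster, 43 with at least 2 genes, 43 thinned and 41 without other classes. Of knockout over wild type gene values, 10 of 13 kept their direction in the gland cluster (6 moved), 24 of 27 without other classes (11 moved) and 28 of 30 with TMM (0 moved), which shifted log2 ratios by -0.096. No paired analysis was possible because each genotype had 1 library, and for the same reason no library could be left out.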

Other observations

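The following raised genes of the gland-cluster nuclei were chosen after their values were seen. SLC22A2, which takes up organic cations, had 189 CPM in wild type and 307 CPM in knockout gland-cluster nuclei, against 2.46 and 8.36 CPM in all other nuclei. SLC47A1, which exports such cations, had 325 and 292 CPM, against 26.2 and 32.7 CPM. SLC9A3, a sodium and proton exchanger, had 87.9 and 66.3 CPM, against 7.27 and 5.29 CPM. SPP1, the matrix protein osteopontin, had 1118 and 921 CPM, against 75.9 and 92.7 CPM, and LBP, which binds bacterial lipopolysaccharide, had 219 and 413 CPM, against 7.68 and 66.7 CPM.

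Of 4224 genes with at least 20 UMIs expected in each library, 333 were at least 4-fold lower in the gland-cluster nuclei than in all other nuclei in both libraries. Of these, named after their values were seen, DNAH5, a dynein heavy chain, had 13.5 and 36.1 CPM, against 148 and 555 CPM, and CFAP54 had 20.3 and 15.1 CPM, against 400.3 and 613 CPM. The clustering used these genes, so the values describe the cluster.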
